A study of Homo sapiens with 16 samples.

Results

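The genes described here are 8 genes of squamous epithelium: the cornified envelope genes IVL, SPRR1B, SPRR2A and SBSN, the protease inhibitor PI3, the epidermal proteases KLK5 and KLK7, and the water and glycerol channel AQP3. They were chosen by name, with earlier results of these data known, and all 8 were found among the 11282 genes of the deposited table. RNA was measured in 16 libraries of HCC70, a human breast carcinoma cell line of triple-negative, basal-like type, grown in 96 well plates and infected with short hairpin RNA (shRNA) constructs. The libraries form 8 groups of 2, numbered 1 and 2 as in the labels. Each group is called a construct here, although every one of the 16 libraries has its own hairpin or vector identifier, so that a difference within a group can be one between hairpins. The targeted groups KLF5, RBPJ, NFIB and FOXA1 are named for a transcription factor, and 2 different hairpins were aimed at each, 1 per library. The control groups are shRFP, shLACZ and shLUC, named for genes that human cells lack and called the hairpin controls here (6 libraries), and plko, named for the vector backbone. The sources used here do not say what insert, if any, separates plko 1 from plko 2, nor which libraries shared a barcoding batch of 12 samples.

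In squamous epithelium, keratinocytes that leave the basal layer build a cornified envelope, a sheet of cross-linked protein under the plasma membrane that replaces it as the cell dies. Involucrin (IVL) is laid down early as a scaffold, small proline-rich proteins (SPRR) are cross-linked onto it by transglutaminases, and kallikrein-related serine proteases such as KLK5 and KLK7 later cut the desmosomal links so that cells can be shed. Basal-like breast cancer cells share keratins with basal keratinocytes, and genes of squamous differentiation can be expressed in them at varied levels.

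IVL, SPRR1B and SPRR2A belong to the epidermal differentiation complex on chromosome 1, and KLK5 and KLK7 to the kallikrein cluster on chromosome 19, where only KLK6 lies between them among protein-coding genes. The 300 bases around the transcription start (250 before and 50 after) were found in RefSeq for 7 of the 8 members, on build GRCh38.p14. The 5 shown here are those of IVL (chr1:152908296-152908595 on the plus strand), SPRR1B (chr1:153030953-153031252 on the plus strand), SPRR2A (chr1:153057463-153057762 on the minus strand), KLK5 (chr19:50952989-50953288 on the minus strand) and AQP3 (chr9:33447544-33447843 on the minus strand), because the results below turn on these genes. Capitals mark matches to the AP-1 motif TGANTCA, the KLF motif CCACCC, the TATA motif TATAAA and the ETS motif CCGGAAG, on either strand.
IVL: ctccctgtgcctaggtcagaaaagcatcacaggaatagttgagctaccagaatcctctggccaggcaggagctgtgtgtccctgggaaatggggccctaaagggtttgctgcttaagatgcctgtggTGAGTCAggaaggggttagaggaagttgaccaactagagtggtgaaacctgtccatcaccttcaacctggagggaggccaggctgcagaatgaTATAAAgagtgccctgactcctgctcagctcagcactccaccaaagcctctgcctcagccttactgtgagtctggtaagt
SPRR1B: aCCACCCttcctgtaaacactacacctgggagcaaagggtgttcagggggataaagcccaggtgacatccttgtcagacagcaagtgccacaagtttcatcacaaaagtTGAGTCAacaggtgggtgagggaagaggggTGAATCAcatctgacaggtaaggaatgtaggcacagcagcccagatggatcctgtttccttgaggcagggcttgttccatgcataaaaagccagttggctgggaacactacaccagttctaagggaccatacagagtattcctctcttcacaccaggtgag
SPRR2A: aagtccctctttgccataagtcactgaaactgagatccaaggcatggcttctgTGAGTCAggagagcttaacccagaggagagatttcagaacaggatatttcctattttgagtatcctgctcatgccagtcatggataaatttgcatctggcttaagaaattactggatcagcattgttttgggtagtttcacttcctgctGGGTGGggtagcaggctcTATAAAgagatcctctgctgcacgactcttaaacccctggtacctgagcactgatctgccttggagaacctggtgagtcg
KLK5: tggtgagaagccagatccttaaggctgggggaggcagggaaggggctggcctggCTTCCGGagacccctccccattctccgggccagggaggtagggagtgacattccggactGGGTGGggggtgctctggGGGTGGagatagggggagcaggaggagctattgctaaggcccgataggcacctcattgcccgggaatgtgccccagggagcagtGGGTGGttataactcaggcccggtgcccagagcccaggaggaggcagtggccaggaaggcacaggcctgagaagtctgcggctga
AQP3: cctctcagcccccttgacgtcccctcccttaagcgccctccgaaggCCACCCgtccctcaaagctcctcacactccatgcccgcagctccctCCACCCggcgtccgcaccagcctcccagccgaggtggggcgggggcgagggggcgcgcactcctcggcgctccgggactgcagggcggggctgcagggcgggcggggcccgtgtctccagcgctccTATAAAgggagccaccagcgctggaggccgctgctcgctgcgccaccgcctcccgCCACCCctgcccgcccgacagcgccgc
The AP-1 motif was present in the windows of 4 of 7 members (IVL, SPRR1B, SPRR2A and SBSN), and in 7.7% of all 35116 promoter windows of this length. The CCACCC motif was present for 6 of 7 (all but IVL), against 34.3% of all windows. KLK7 had 3 windows and was counted if any of them held a match, whereas the percentages are per window. KLK5 and AQP3 held 3 matches each, those of AQP3 starting at positions -204, -158 and 24, counted from the transcription start. TATAAA was present for IVL, SPRR2A and AQP3, at positions -30, -30 and -32, against 11.5% of all windows. The FOXA motif TGTTTAC matched in SPRR1B (3.4% of all windows), the NFI core TTGGCA in KLK7 (12.5%) and the ETS motif in KLK5 (10.3%). The RBPJ motif GTGGGAA (6.2%) and the C/EBP motif TTGCGCAA (0.2%) matched in none of the 7. No matches overlapped each other. A match describes letters in this window and not binding.

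Values are the deposited normalized signal, in which 1 read was worth between 0.249 (RBPJ 1) and 2.21 (plko 1), and recovered totals ran from 375713 to 3090666 reads. The basal-like markers were present as 8 of 8 listed genes, from KRT5 at 2530 to 3710 in the hairpin controls down to KRT14 at 19.3 to 66.7. Among the mature luminal markers the receptor genes ESR1 and PGR were at 3.4 to 10.7 and 0 to 4.22. GATA3 (100 to 173), XBP1 (134 to 173) and AGR2 (85.9 to 225) lay above KRT14, so level alone does not separate the lists. The KLF5 transcript was at 62.6 in KLF5 1, 37.3 in KLF5 2 and 88.7 to 112 in the hairpin controls. FOXA1 was at 24.4 and 58.6 against 67.6 to 160, and NFIB at 238 and 42.2 against 309 to 366. RBPJ was at 8.53 in RBPJ 2, but at 43.3 in the library labelled RBPJ 1, where the hairpin controls ran from 43.1 to 54.9, so no direction is drawn from the RBPJ mean without each library's value.

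The abundance of the members differed widely. PI3, which encodes the elastase inhibitor elafin, ran from 25.7 to 685 over the 16 libraries, and KLK5 from 94.9 to 368. KLK7 ran from 16.9 to 152, AQP3 from 7.0 to 81.1 and IVL from 2.13 to 51.5. SPRR1B ran from 0 to 115, SPRR2A from 0.711 to 78.2 and SBSN from 0 to 13.2. These ranges describe each gene on its own scale and were not compared between genes. All 8 members passed the filter on low values (at least 5 in at least 2 libraries), but SBSN, a secreted protein of the suprabasal epidermis, passed it only through the FOXA1 libraries. Its test in comparisons with FOXA1 is therefore not independent of the filter. Of the last 300 bases of the SPRR2A transcript, 55.8% of all stretches of 25 bases also occur in SPRR2D, SPRR2B, SPRR2F or SPRR2E. The value of SPRR2A may therefore include reads of those genes. The share was 0% for every other member except AQP3, at 0.4%.

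**Figure D1:**
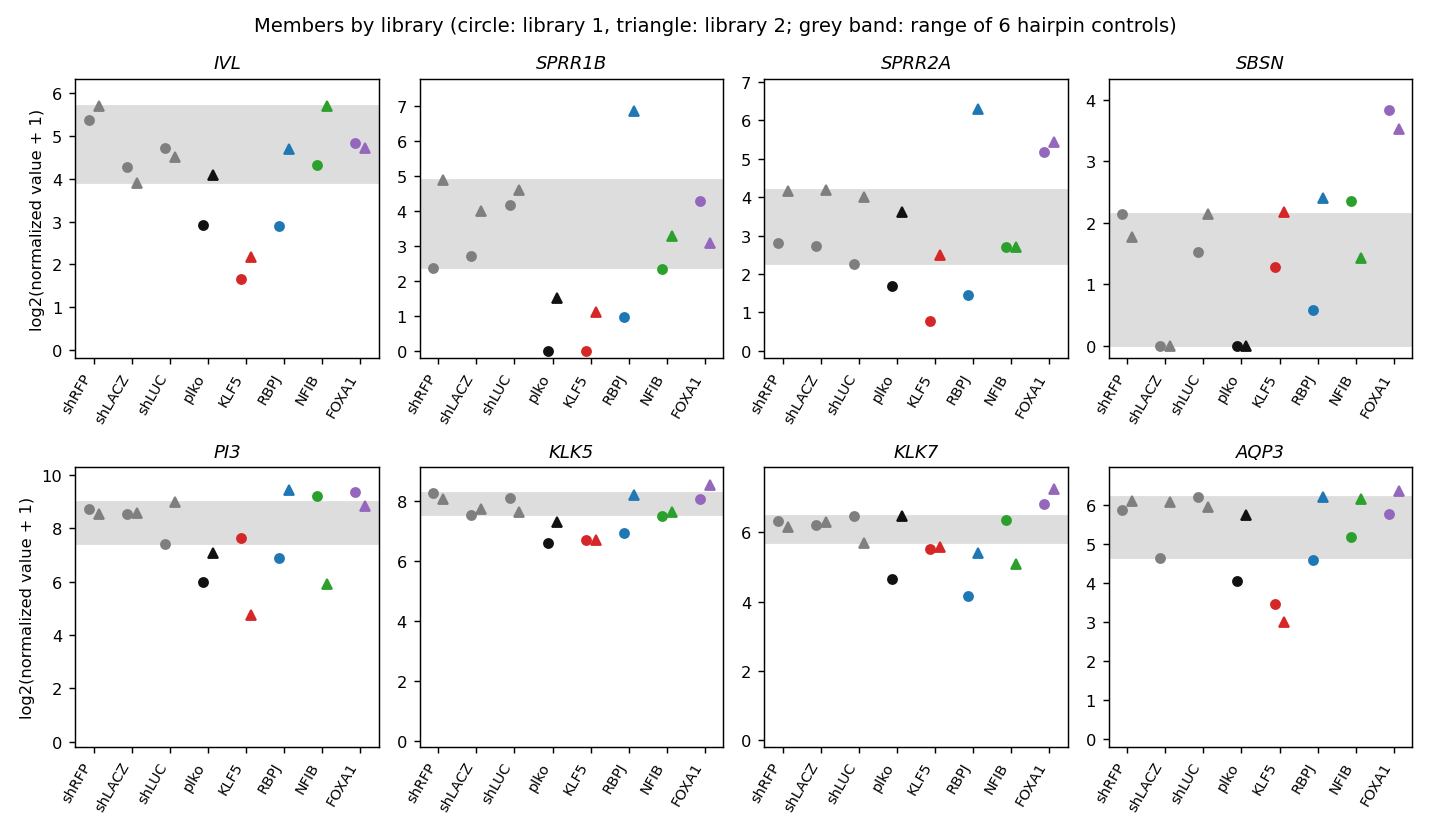
Normalized value of each member, as log2(value + 1) on the vertical axis, in the 2 libraries of each construct (circle, library 1; triangle, library 2), with the range of the 6 hairpin control libraries as a grey band. Both KLF5 libraries lie below the band for IVL, SPRR1B, KLK5, KLK7 and AQP3, and both FOXA1 libraries lie above it for SPRR2A, SBSN and KLK7.

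With the KLF5 hairpins the envelope genes IVL and SPRR1B and the channel gene AQP3 fell, while SPRR2A and SBSN did not pass. IVL was at 2.13 in KLF5 1 and 3.5 in KLF5 2, and in the hairpin controls at 13.9 (lowest), 23.5 (median) and 51.5 (highest). Both KLF5 values rest on 3 reads, and both lie below every hairpin control. IVL fell by 2.84 on the log2(value + 1) scale (SE 0.48, limma adjusted p = 0.000352), and the pooled reads of the KLF5 libraries gave 9.41% of the hairpin control level (exact 95% interval 3.41% to 20.9%, counting error only). In these bulk samples fewer cells that express a gene and less RNA per cell cannot be told apart. AQP3, which carries water and glycerol into keratinocytes, was at 9.95 in KLF5 1 and 7.0 in KLF5 2, against 23.9, 63.5 and 72.5 (lowest, median, highest) in the hairpin controls. The groups did not overlap, and AQP3 fell by 2.58 (SE 0.43, limma adjusted p = 0.000329). SPRR1B, which is cross-linked into the envelope, had values of 0 and 1.17 in KLF5 1 and KLF5 2, which is 1 read in all, and at 4.25, 16.0 and 28.7 in the hairpin controls. Pooled reads gave 2.75% of the control level, with an exact 95% interval of 0.0689% to 15.6%, and SPRR1B passed as lower (log2 fold change -3.24, SE 0.92, limma adjusted p = 0.0232). SPRR2A, its neighbour in the same gene cluster, was at 0.711 and 4.67 against 3.78, 10.5 and 17.1, so that KLF5 2 lay inside the control range, and it did not pass (log2 fold change -1.71, SE 0.80, limma adjusted p = 0.181). SBSN was at 1.42 and 3.5 (2 and 3 reads) against 0 to 3.4 in the hairpin controls.

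Of the protease genes KLK5 fell with the KLF5 hairpins and KLK7 did not pass, and the elastase inhibitor gene PI3 fell. KLK5, the trypsin-like protease that starts the epidermal kallikrein cascade, was at 103 and 104 in KLF5 1 and KLF5 2 and at 183, 240 and 306 in the hairpin controls. It fell by 1.18 (SE 0.26, limma adjusted p = 0.00455), and the KLF5 libraries did not differ from each other beyond counting error. KLK7, the chymotrypsin-like protease that KLK5 activates, was at 44.8 and 46.7 against 51.0, 75.7 and 88.2. Both libraries lay below the control range, but KLK7 did not pass (log2 fold change -0.65, SE 0.37, limma adjusted p = 0.286). PI3 passed as lower (log2 fold change -2.28, SE 0.67, limma adjusted p = 0.0283), although its 2 hairpins differed: KLF5 1, at 196, fell within the hairpin control values of 169 to 503, and KLF5 2 was at 25.7.

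In all, 5 of 8 members fell with the KLF5 hairpins, where 6.61% of the 10826 genes tested fell and 11% changed in either direction. In 5 of 8 both KLF5 libraries lay below all hairpin controls, as did 13.4% of all genes. The median log2 fold change of the members was -2 and that of all genes 0.05. The members were chosen with earlier results of these data known, so these counts are not an independent test. IVL and AQP3 passed under every alternative run, and SPRR2A did so without RBPJ 1 (limma adjusted p = 0.0385) or RBPJ 2 (0.0476). KLK5 lost its call without KLF5 1 (limma adjusted p = 0.0744), without KLF5 2 (0.0603) and with plko counted among the controls (0.0977). The PI3 call was lost when KLF5 2 was left out (-0.84 on the log2 scale, limma adjusted p = 0.651), with plko among the controls (0.194), and by edgeR (0.109) and DESeq2 (0.2). SPRR1B lost its call without KLF5 1 (limma adjusted p = 0.269) or KLF5 2 (0.084), with plko among the controls (0.21), with a pseudocount of 5 (0.0718) and by edgeR (0.0861). A construct with 1 library left out has a single sample, whose spread is taken from the other groups. Of 6 fibroblast markers listed 3 were in the table, with a summed value of 33.4 to 39.7 with KLF5, 35.5 to 39.7 with NFIB and 8.38 to 25.8 in the hairpin controls. Only COL1A1 passed the filter on low values, and it rose with KLF5 (27.0 and 29.2 from 6.8 to 25.8, limma adjusted p = 0.0291). That call was lost without KLF5 1 (0.17), KLF5 2 (0.197), shRFP 1 (0.0554), shRFP 2 (0.0504) or shLUC 2 (0.0513), with plko among the controls (0.0536), and by edgeR (0.0562) and DESeq2 (0.0613). Of 6 mature luminal markers 5 were in the table and 4 were tested. GATA3 alone passed, where 11% of all genes changed. It rose to 289 and 242 from 100 to 173 (limma adjusted p = 0.0134). With a single KLF5 library left, GATA3 was higher by 0.8 (KLF5 1 left out) or 1.06 (KLF5 2 left out) and no longer passed. With plko among the controls it did not pass either (limma adjusted p = 0.104). The median log2 fold change of the 4 tested was -0.27. AGR2 (87.4 and 56.0), XBP1 (134 and 131) and ESR1 (2.84 and 5.83) lay below their hairpin control means of 127, 152 and 6.07. The part of other cell types or states in these results was not tested. The leukocyte marker PTPRC, the 1 of 5 in the table, was at 0 to 3.55 in every library, and 0 of 3 endothelial markers were in the table.

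The plko libraries were also low for several members, and unequally so. IVL was at 6.62 in plko 1 (3 reads) and 16.1 in plko 2. AQP3 was at 15.4 and 52.7, and PI3 at 61.8 and 136. SPRR1B was at 0 and 1.86, which is 3 reads in all. The first library was below the second for every member but SBSN, which had 0 reads in both, and plko 1 is the shallowest library of the series. KLK5 was at 94.9 and 156, below every hairpin control, and fell by 0.94 (SE 0.26, limma adjusted p = 0.0299). SPRR1B also fell against the hairpin controls (limma adjusted p = 0.0439), to 9.02% of their level on pooled reads (exact 95% interval 1.83% to 27.1%). KLK7 was at 24.3 in plko 1 and at 88.6 in plko 2, at opposite ends of the control range of 51.0 to 88.2 and outside it in both cases. SPRR2A was at 2.21 and 11.2, and its log2 fold change of -0.71 had an interval of -2.36 to 0.94. For SBSN both plko libraries had 0 reads, as had both shLACZ libraries. The hairpin control value of 2.09 on pooled reads rests on 14 reads. Pooled plko reads gave 0% of that value (exact 95% interval 0% to 97.9%, counting error only). Thus 2 of 8 members were lower in plko than in the hairpin controls, where 5.63% of all genes were lower and 7.5% changed in either direction. For 3 of 8 (SPRR1B, PI3 and KLK5) both plko libraries lay below all hairpin controls, as for 12.3% of all genes. PI3 did not pass (log2 fold change -1.93, limma adjusted p = 0.0775), but did so at 0.0327 to 0.0368 without any one of the RBPJ or NFIB libraries, and without plko 2 KLK7 (-1.54, 0.0178) and AQP3 (-1.76, 0.0308) passed. For KLK5 the call was lost without plko 1 (limma adjusted p = 0.569), without shRFP 1 (0.0612) or shRFP 2 (0.0542), and by edgeR (0.0842). The SPRR1B call was lost without plko 1 (limma adjusted p = 0.524), at 0.0515 to 0.0818 without any one of KLF5 1, KLF5 2, shRFP 2, shLACZ 2, shLUC 1, shLUC 2, FOXA1 1 or FOXA1 2, with a pseudocount of 5 (0.106), with the 8-level factor (0.0635), and by edgeR (0.239) and DESeq2 (0.143).

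Set directly against plko, the KLF5 libraries passed for none of the 8 members by limma, where 3.44% of all genes passed. Nearest to the threshold were AQP3 (log2 fold change -1.67, SE 0.53, limma adjusted p = 0.0814) and IVL (-1.60, SE 0.58, 0.125), the 2 members at an unadjusted p under 0.05. For these 2 of 8 members the KLF5 libraries lay below both plko libraries, as for 21.7% of all genes. By edgeR and by DESeq2 0 members passed as well. AQP3 passed when the label numbers were used as a block (limma adjusted p = 0.0358) and without either RBPJ library (0.0394 without RBPJ 1 and 0.041 without RBPJ 2). The other members were close to 0 or had wide intervals: KLK5 was at -0.23 (95% interval -0.90 to 0.43), KLK7 at -0.03 (-0.96 to 0.91), PI3 at -0.35 (-2.04 to 1.33) and SPRR1B at -0.20 (-2.52 to 2.12). SPRR2A was at -1 (-3.02 to 1.01) and SBSN, in the opposite direction, at 1.72 (-0.07 to 3.52). These intervals do not show that KLF5 and plko libraries were alike for those genes.

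**Figure D2:**
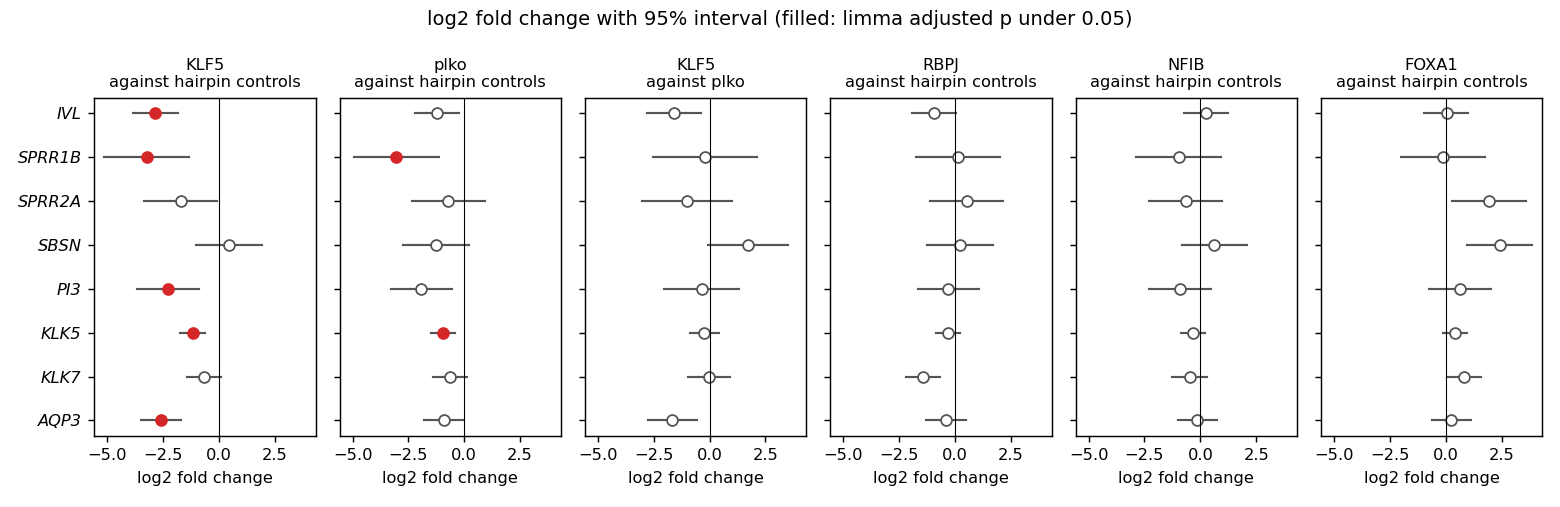
The log2 fold change of each member (point) with its 95% interval (bar), in 1 panel per comparison, filled where the limma adjusted p over all genes was under 0.05. IVL, SPRR1B, PI3, KLK5 and AQP3 are filled for KLF5 against the hairpin controls, SPRR1B and KLK5 for plko, and no member in the other 4 panels.

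With the RBPJ hairpins the members split by library. SPRR1B was at 0.99 (4 reads) in the library labelled RBPJ 1 and at 115 (243 reads) in RBPJ 2, against 4.25 to 28.7 in the hairpin controls, so that the first lay below and the second above every control. On counting error alone the ratio of the second to the first was 116 (exact 95% interval 44.7 to 429), which compares those libraries and not the conditions. SPRR2A was at 1.74 and 78.2, a ratio of 45.0 (21.3 to 114), again on both sides of the control range. PI3 was at 119 and 685 (ratio 5.75, interval 5.18 to 6.39), below and above the range of 169 to 503. IVL was at 6.46 and 25.1, KLK5 at 120 and 292, AQP3 at 23.1 and 72.1, and SBSN at 0.497 and 4.27. For IVL, KLK5 and AQP3 the library labelled RBPJ 1 lay below all hairpin controls and RBPJ 2 inside their range. KLK7 was the 1 of 8 members below the controls in both, as were 4.03% of all genes: it was at 16.9 and 41.3 against 51.0 to 88.2.

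The library labelled RBPJ 1, in which RBPJ was not below the control range, thus had 8 of 8 members under the hairpin control mean and 7 below every hairpin control. RBPJ 2, in which RBPJ was low, had 6 of 8 over the mean and 4 above every hairpin control. The share of all genes beyond every hairpin control in a single library was not taken. These counts therefore do not tell a shift of the members from a shift of many genes. The 2 libraries differed by more than 1 on the log2 scale for 8 of 8 members, as they did for 13.5% of all genes tested, and their depths were 3090666 and 1762664 reads. For the mean of both, 0 of 8 members passed by limma, where 0.0277% of all genes passed, 1 (KLK7) had an unadjusted p under 0.05, and edgeR called 0 and DESeq2 called KLK7 alone (adjusted p = 0.0412). The log2 fold change of KLK7 was -1.42 (SE 0.37, limma adjusted p = 0.216). Without the library labelled RBPJ 1, SPRR1B and SPRR2A passed as higher, by 3.06 and 2.96 on the log2 scale (limma adjusted p = 0.0371 and 0.029). Without RBPJ 2 they were at -2.80 and -1.90 and did not pass (limma adjusted p = 0.404 and 0.739).

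The NFIB hairpins split PI3 most. PI3 was at 588 in NFIB 1 and 58.6 in NFIB 2, above and below the hairpin control range of 169 to 503, and the first was 10.0 times the second (exact 95% interval 8.37 to 12.1, counting error only). NFIB was itself lowered more in NFIB 2 than in NFIB 1. KLK7 differed in the same direction, at 80.6 and 32.9, the second below the control range. IVL and AQP3 differed the other way, at 19.1 and 51.0 for IVL and 35.5 and 70.4 for AQP3, all within the control ranges. KLK5 was at 181 and 197 and SPRR2A at 5.47 and 5.48, with little between the libraries. SPRR1B was at 4.10 and 8.86, in the lower part of the control range or just under it. No member passed by limma, where 0.00924% of all genes passed, and 0 had an unadjusted p under 0.05 or passed by edgeR or DESeq2. The median log2 fold change of the members was -0.4 and that of all genes 0.04.

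The FOXA1 libraries held the highest level of several members. SBSN was at 13.2 and 10.5 (20 and 7 reads), whereas no other library exceeded 4.27. SPRR2A was at 34.9 and 42.1, above the hairpin control maximum of 17.1, and KLK7 was at 111 and 152, above 88.2. For SPRR2A the single higher library of the series was RBPJ 2, and for KLK7 there was none. KLK5 was at 267 and 368, IVL at 27.7 and 25.5, AQP3 at 53.3 and 81.1, PI3 at 651 and 460 and SPRR1B at 18.4 and 7.51. For these 5 genes at least 1 FOXA1 library lay inside the hairpin control range. Both libraries were above all hairpin controls for 3 of 8 members, as for 4.58% of all genes, and SBSN reached the test only through these libraries. By limma 0 of 8 members passed, where 0.00924% of all genes did, 3 had an unadjusted p under 0.05 and edgeR and DESeq2 called 0. SBSN had a log2 fold change of 2.41 (SE 0.71, limma adjusted p = 0.449), SPRR2A of 1.94 (SE 0.80, 0.64) and KLK7 of 0.83 (SE 0.37, 0.683). The median over the members was 0.53 and over all genes 0.

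**Figure D3:**
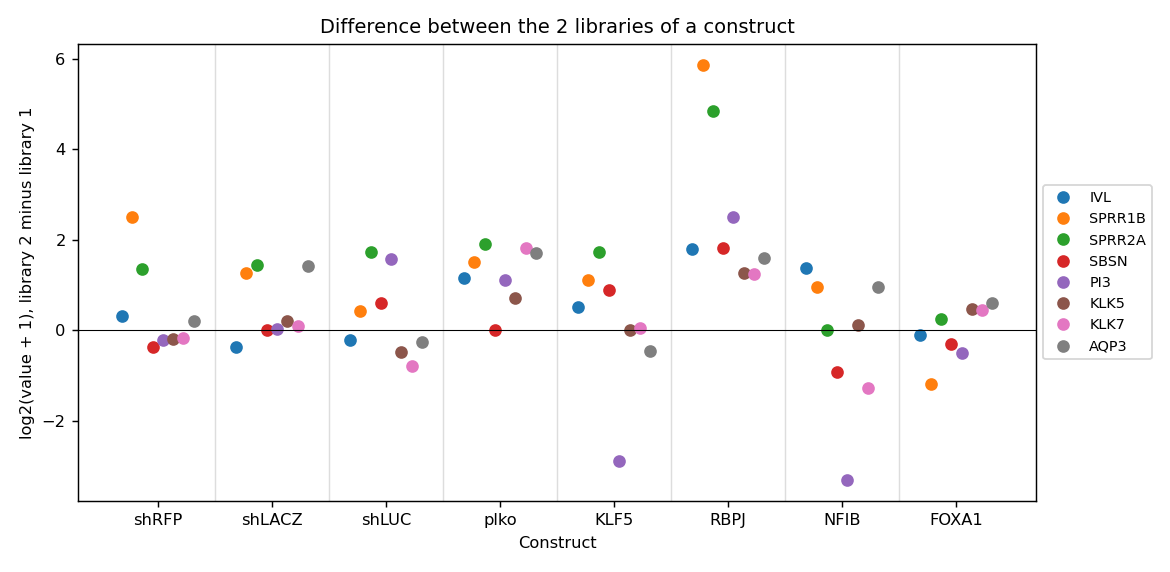
Difference between the 2 libraries of each construct for every member (library 2 minus library 1, log2(value + 1) scale, vertical axis). The RBPJ pair is above 0 for all 8 members and reaches 5.86 for SPRR1B, while PI3 is at -2.89 for KLF5 and -3.30 for NFIB.

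Libraries of a construct differed more for the members than for the typical gene in 6 of the 8 constructs. The median absolute difference between the 2 libraries was 1.81 on the log2 scale over the members for RBPJ and 0.41 over all genes. For plko it was 1.34 against 0.43, for NFIB 0.96 against 0.38 and for KLF5 0.71 against 0.34. For shRFP and shLACZ the median over the members was the smaller, at 0.27 against 0.31 and 0.29 against 0.36. For shLUC the values were 0.54 against 0.29, with PI3 at 169 and 503, and for FOXA1 0.45 against 0.33. SPRR1B differed even between control libraries, at 4.25 and 28.7 in shRFP 1 and shRFP 2. SPRR1B was higher in library 2 than in library 1 in 7 of 8 constructs (all but FOXA1), and SPRR2A likewise in 7 of 8, by 0.26 to 4.85 on the log2 scale, and was at 5.47 and 5.48 with NFIB.

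Targets were also compared with each other, in the same fit, so that the control libraries enter through the estimate of the spread. KLF5 libraries were lower than FOXA1 libraries for 5 of 8 members by limma, where 3.16% of all genes were lower and 6.11% differed. These were AQP3 (log2 fold change -2.83, limma adjusted p = 0.00223), IVL (-2.88, 0.00455), KLK5 (-1.59, 0.00437), SPRR2A (-3.66, 0.027) and PI3 (-2.92, 0.0339). By edgeR and by DESeq2 the members called were AQP3, IVL, KLK5 and KLK7, so SPRR2A and PI3 lost their calls. PI3 also lost its call with the 8-level factor. In 8 of 8 members both KLF5 values lay below both FOXA1 values, as in 25% of all genes. This count includes SBSN, which passed the filter only through the FOXA1 libraries, so its place in it is not independent of the filter. Against NFIB, IVL (-3.11, limma adjusted p = 0.00214) and AQP3 (-2.45, 0.00618) were lower with KLF5 hairpins, 2 of 8 where 6.84% of all genes differed. Against RBPJ, AQP3 alone passed (-2.17, limma adjusted p = 0.018), 1 of 8 where 5.68% of all genes differed, while edgeR called 3 (AQP3, SPRR1B and SPRR2A) and DESeq2 5 (those, IVL and KLK5). With the label numbers as a block limma called 3 (AQP3, IVL and SPRR1B). In RBPJ 1 and RBPJ 2 AQP3 was at 23.1 and 72.1, both above the KLF5 values. For RBPJ against FOXA1 KLK7 passed, at 16.9 in the library labelled RBPJ 1 and 41.3 in RBPJ 2 against 111 and 152 (-2.25, SE 0.45, limma adjusted p = 0.0387), 1 of 8 where 0.12% of all genes differed. NFIB differed from RBPJ and from FOXA1 for 0 of 8 members by limma, edgeR and DESeq2, where 0% and 0.0554% of all genes differed, and 2 and 3 members had an unadjusted p under 0.05. Without the library labelled RBPJ 1, SPRR1B and SPRR2A passed for RBPJ against NFIB. The count of 5 against FOXA1 became 1 without FOXA1 2, 3 without FOXA1 1 or KLF5 1, 4 without KLF5 2, and 7 without either RBPJ library. Against RBPJ the count became 0 without KLF5 1, KLF5 2 or RBPJ 2 and 6 without the library labelled RBPJ 1, and against NFIB AQP3 lost its call without KLF5 2 and without NFIB 2. The KLK7 call against FOXA1 was lost without any one of KLF5 1, KLF5 2, RBPJ 1, shRFP 1, shRFP 2, shLACZ 1, shLACZ 2, shLUC 1, FOXA1 1 and FOXA1 2, and with the 8-level factor.

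Across the 8 constructs, 3 of 8 members differed beyond the spread between libraries, where 4.42% of all genes did: IVL (limma F test, adjusted p = 0.00478), AQP3 (0.0208) and KLK5 (0.0276). SBSN (0.0542), KLK7 (0.0975), SPRR1B (0.163), PI3 (0.185) and SPRR2A (0.304) did not pass. Ordered by construct mean, IVL was highest in shRFP (46.2), followed by NFIB, FOXA1, shLUC, shLACZ, RBPJ and plko, with KLF5 (2.82) last, and 4 of the 7 neighbouring constructs in this order overlapped. Its step from plko (11.4) to KLF5 was without overlap. AQP3 ran from FOXA1 (67.2) through shLUC, shRFP, NFIB, RBPJ, shLACZ and plko to KLF5 (8.48), and each neighbour but the last overlapped. KLK5 ran from FOXA1 (317) through shRFP, shLUC, RBPJ, shLACZ, NFIB and plko to KLF5 (103), with a gap only between NFIB (189) and plko (126). KLK7 ran from FOXA1 (131) through shLACZ, shRFP, shLUC, NFIB, plko and KLF5 to RBPJ (29.1), with gaps at both ends. PI3 ran from FOXA1 (555) through RBPJ, shRFP, shLACZ, shLUC, NFIB and KLF5 to plko (98.7), and all 7 neighbours overlapped. SPRR1B and SPRR2A were both highest in RBPJ (58.1 and 40.0, each from 1 library) and lowest in KLF5 (0.583 and 2.69), and 6 and 5 of their 7 neighbours overlapped. SBSN was highest in FOXA1 (11.8) and at 0 in plko and shLACZ, with 5 of 7 overlapping. The count of 3 became 0 without KLF5 1, 1 (IVL) without KLF5 2, shRFP 1 or shRFP 2, and 7 without either RBPJ library. It became 2 without shLACZ 1, shLACZ 2 or FOXA1 2 and by edgeR and DESeq2, both of which called IVL and KLK5. KLK5 also lost its call without plko 1, where KLK7 passed.

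IVL, KLK5 and AQP3 varied most alike. Over the 16 libraries, which differ in depth, the Pearson correlation of log2(value + 1) was 0.88 between IVL and AQP3, 0.87 between KLK5 and AQP3, 0.84 between IVL and KLK5 and 0.80 between SPRR1B and SPRR2A. The 2 proteases KLK5 and KLK7 were at 0.67. The lowest values were 0.28 for SBSN with AQP3 and 0.33 for SBSN with IVL. Among 6387 other genes with a mean of at least 20, the one most like the mean of the members was KLK10, a further kallikrein (0.94), followed by KRT6A, a keratin of stressed and hyperproliferative epithelium (0.91), the chaperone gene HSPA8 (0.91) and ADI1, of methionine salvage (0.91). RRP36 (0.89), HSP90AB1 (0.89), AMOTL1 (0.88) and RABIF (0.88) came next. For single members the nearest genes were SSRP1, HOXB2 and MRPL51 for IVL (0.92, 0.89 and 0.89), and SPRR1B had UFC1 and KLK10 among its nearest (0.88 and 0.87). For SPRR2A they were ST3GAL1, RAP2B and CPA4 (0.83, 0.82 and 0.82), and for PI3 KRT6A, SERPINB5 and DPH3 (0.90, 0.87 and 0.84). KLK5 was nearest to ADI1, KLK10 and RPS20 (0.93, 0.88 and 0.87), KLK7 to LANCL2, ZNF385A and S100A7 (0.81, 0.81 and 0.78), and AQP3 to POGK, SRPX2 and MRPL11 (0.92, 0.92 and 0.90). SBSN was below the mean of 10 set for this search. These correlations are descriptions without a test.

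Other genes of the same system were read from lists made from textbook knowledge. Of 49 further cornified envelope genes listed 9 were in the table, of 19 proteases 12, of 13 protease inhibitors 7, of 18 barrier lipid enzymes 7 (6 tested), of 19 squamous transcription factors 18 (17 tested) and of 11 aquaporins 1. None of these passed by limma against the hairpin controls with RBPJ, NFIB or FOXA1 hairpins. Of 12 further epidermal proteases tested, 1 fell and 0 rose with the KLF5 hairpins, a share near the 6.61% of all genes that fell: KLK10 was at 14.9 and 16.3, against 63.4 to 122 in the hairpin controls (log2 fold change -2.27, SE 0.55, limma adjusted p = 0.00801). In plko 2 of 12 fell, where 5.63% of all genes were lower. These were KLK10 (6.62 and 27.3, -2.45, limma adjusted p = 0.00867) and KLK6 (2.21 and 2.48 against 2.82 to 18.0, -1.79, 0.0429). KLK10 also repeated the split between the RBPJ libraries, at 19.4 in the library labelled RBPJ 1 and 259 in RBPJ 2. KLK6 was highest in FOXA1 2, at 42.1. The KLK10 call with KLF5 was lost without KLF5 1 (limma adjusted p = 0.112) or KLF5 2 (0.0801) and with plko among the controls (0.215), and the plko calls of KLK10 and KLK6 without plko 1 (0.401 and 0.334) and by edgeR (0.09 for both). The plko call of KLK10 was also lost by DESeq2 (0.0612), and that of KLK6 at 0.0568 to 0.0989 without plko 2, shRFP 1, shRFP 2, shLACZ 2, shLUC 1 or shLUC 2 and with a pseudocount of 5 (0.0618).

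Of 7 further protease inhibitors, 1 fell with the KLF5 hairpins, where 6.61% of all genes fell, and the other 6 did not pass. This was SLPI, a secreted inhibitor of leukocyte proteases related to elafin, at 1370 and 728 against 1650 to 2360 (log2 fold change -0.96, SE 0.22, limma adjusted p = 0.00575). SLPI was also below every hairpin control, without passing, in both libraries of plko (1550 and 968), RBPJ (1550 and 1480) and FOXA1 (1350 and 1490). With NFIB it was inside the range, at 2210 and 2110. The SLPI call was lost without KLF5 2 (-0.50, limma adjusted p = 0.332) and with plko among the controls (0.0811). Of 9 further envelope genes, none fell with the KLF5 hairpins and CALML5, a calmodulin-like protein of differentiating keratinocytes, rose, to 192 and 99.2 from 57.5 to 95.2 (log2 fold change 0.99, SE 0.25, limma adjusted p = 0.0101). That call was lost without KLF5 1 (0.52, limma adjusted p = 0.41). A count of 1 in 9 is near the 11% of all genes that changed. Their median log2 fold change was -0.33, against 0.05 for all genes. In plko, EVPL, the envelope plakin envoplakin, fell to 8.82 and 19.8 from 27.1 to 35.7 (limma adjusted p = 0.0135), a call lost without plko 1 (0.509) and by edgeR (0.09) and DESeq2 (0.122).

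Of 17 squamous transcription factors tested, none passed against the hairpin controls with any of the 4 targets or plko, where 11% of all genes passed with KLF5, 7.5% with plko and 0.0277% or fewer with the other 3 targets, so the counts for those 3 say little about these factors. KLF4, a factor of barrier formation, had values of 29.1 and 33.8 in the KLF5 libraries, within the hairpin control range of 18.3 to 34.3, and GRHL3 at 7.11 and 16.3 against 3.21 to 10.7. Of 6 barrier lipid enzymes tested, 0 passed with the KLF5 hairpins by limma and ELOVL1, a fatty acid elongase, fell in plko (37.5 and 34.1 from 46.5 to 69.6, limma adjusted p = 0.0262), a call lost without plko 1 (0.176) or plko 2 (0.102). With the KLF5 hairpins the epithelial stress keratin KRT6A fell as well, to 105 and 73.5 from 329 to 1100 (log2 fold change -2.77, SE 0.68, limma adjusted p = 0.00898). It was the 1 of 8 basal-like markers that passed, a share near the 11% of all genes that changed. In both plko libraries KRT6A was also below every hairpin control, at 64.0 and 276, without passing. Its call with KLF5 was lost without KLF5 1 (log2 fold change -3.03) or KLF5 2 (-2.52). It was lost as well with plko among the controls (-2.23, limma adjusted p = 0.117). With the FOXA1 hairpins the luminal secretory gene AGR2 fell to 25.7 and 27.0 from 85.9 to 225 (limma adjusted p = 0.00697), a call lost without FOXA1 2 (0.235) and by edgeR (0.0606).

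**Figure D4:**
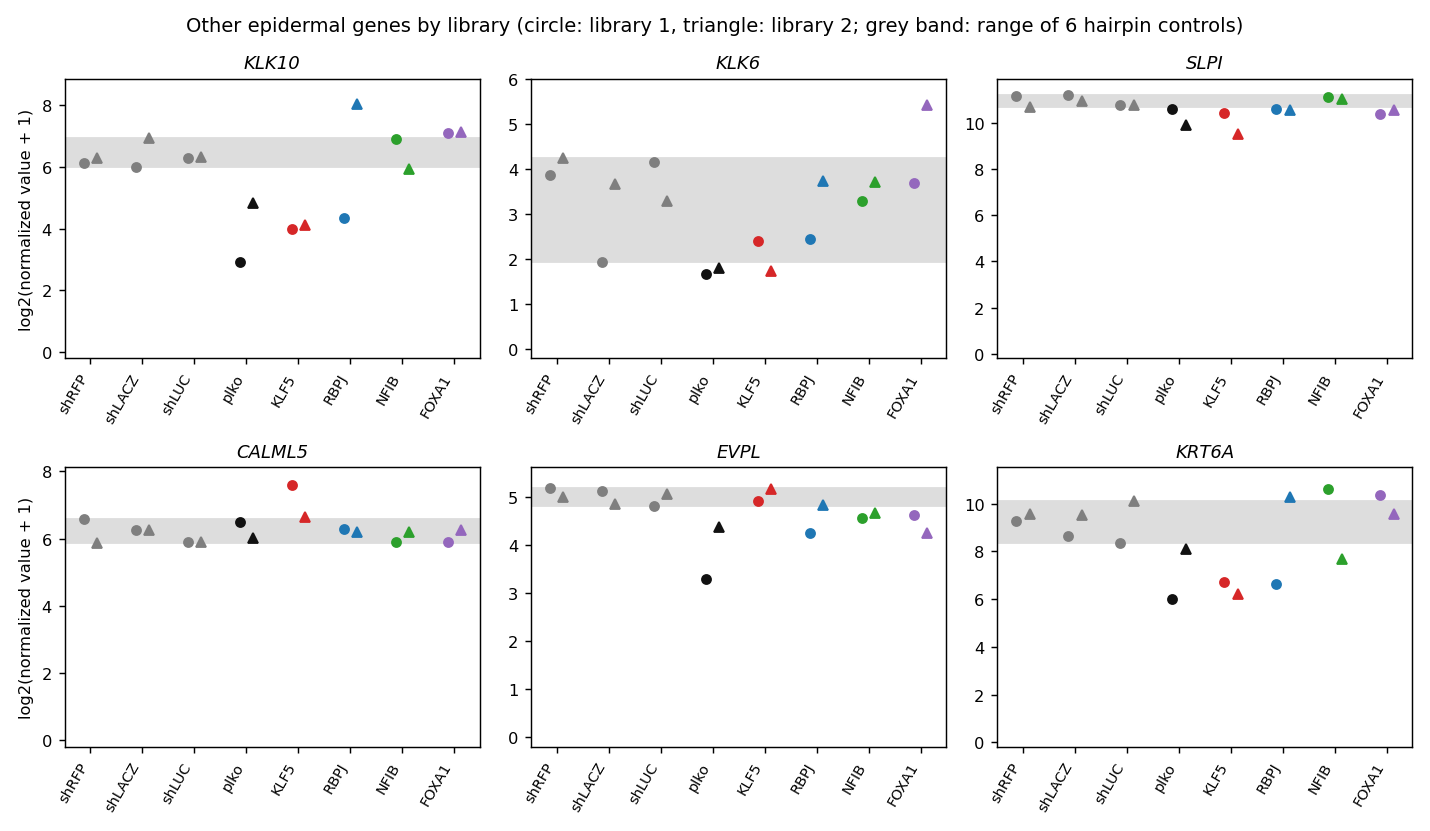
Normalized value, as log2(value + 1) on the vertical axis, of 6 further epidermal genes in the 2 libraries of each construct, with the range of the 6 hairpin controls as a grey band. KLK10 and KRT6A are each below the band in both KLF5 and both plko libraries, in RBPJ 1 and in NFIB 2. CALML5 is above it in both KLF5 libraries.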

How the data were processed

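RNA of 16 HCC70 libraries was measured by 3' barcoded sequencing in the manner of CEL-Seq, and some samples were run again for low representation, per the labels' protocols. The values used are the authors' deposited normalized signal, named DESeq2-normalized in the table's name, and the submitters' processing notes name GRCh37. The sources used here do not give the aligner, counter, annotation, use of molecular identifiers or filters. Dividing each library by the value of 1 read gave whole numbers, within 0.05, for 100% of values, so whole reads were recovered. Symbols were found for 11259 of 11282 identifiers, and 2 columns of the table match no sample described here and were not used. Recovered totals had a median of 1164801.5 reads. The labels do not say that libraries of a construct came from separate cultures, so p-values measure only the spread between these samples, and intervals on reads cover counting error only.

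The test was limma 3.58.1 (R 4.3.3) with a mean-variance trend on log2(value + 1), a scale that understates changes of low genes. The factor had 6 levels (hairpin controls, plko and the 4 targets) over all 16 libraries, with plko kept apart because earlier results of these data showed it apart. Kept were 10826 genes that reached 5 in 2 or more libraries. Tests were 2-sided, with Benjamini-Hochberg adjustment over all genes and a threshold of 0.05. Differences among constructs used limma's F test on an 8-level factor. Alternatives were pseudocounts of 0.5 and 5, no filter, TMM scaling, plko pooled with the controls, an 8-level factor, edgeR 4.0.16 and DESeq2 1.42.0 on recovered reads, the replicate number as a block, and leaving out each library. The fit was tested on simulated data with the same noise level in all libraries. That simulation does not show how the fit handles constructs whose libraries differ unequally, as they do here. The members and lists were chosen with earlier results of these data known. Named were all members, at most 4 passing genes per list and comparison, the 4 targeted genes, the 3 genes most correlated with each member of mean at least 10, and the 8 most correlated with the members' mean. KLF4, GRHL3, ESR1, PGR, XBP1, KRT5, KRT14 and PTPRC, and the libraries singled out, were chosen after their values were seen. Some genes that meet the rule are not reported here.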

Additional observations from a re-analysis of the deposited data

Results flagged for a closer look

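Among the 6 hairpin control libraries, AQP3 in shLACZ 1 stood apart from the rest, at 23.9 where the other 5 lay between 57.8 and 72.5. Each member's lowest and highest control library was examined in this way, and chance flags about 1 in 20 such groups.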

How the results depend on the processing

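Values with 2 libraries per construct depend on single libraries. With any library left out, the number of genes called ranged from 365 to 1320 for KLF5 against the hairpin controls (1194 with all), 131 to 1115 for plko (812), 0 to 958 for KLF5 against plko (372), 0 to 205 for RBPJ (3), 0 to 4 for NFIB (1), 0 to 30 for FOXA1 (1) and 140 to 1210 among the 8 constructs (478). The number of members called ranged from 2 to 6 for KLF5, 0 to 4 for plko, 0 to 1 for KLF5 against plko, 0 to 2 for RBPJ, 0 to 6 for KLF5 against RBPJ, 1 to 3 for KLF5 against NFIB, 1 to 7 for KLF5 against FOXA1, 0 to 2 for RBPJ against NFIB, 0 to 1 for RBPJ against FOXA1 and 0 to 7 among the 8 constructs. With plko pooled into the controls, KLF5 called 581 genes and 2 members, and this setting gives no value for plko. The 8-level factor called 1 member for plko, 2 for KLF5 against RBPJ and 0 for RBPJ against FOXA1. A pseudocount of 0.5 called 2 members for KLF5 against RBPJ, and one of 5 called 9 genes for RBPJ, 2 for FOXA1 and 1 member for plko. edgeR called 3 members for KLF5, 1 gene for RBPJ, 0 for NFIB, 382 genes and 0 members for plko, 146 genes for KLF5 against plko and 3 members for KLF5 against RBPJ. DESeq2 called 29 genes and 1 member for RBPJ, 4 genes for NFIB, 2 for FOXA1, 485 genes and 1 member for plko, and 5 members for KLF5 against RBPJ. At an unadjusted p under 0.05 limma had 651 genes for RBPJ, 707 for NFIB and 753 for FOXA1. The cause of these differences was not tested.

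Fold changes whose sign turned were all uncalled in the main test. With plko pooled they were PI3 for RBPJ (0.19), AQP3 for NFIB (0.10) and SPRR1B for FOXA1 (0.65). With a pseudocount of 0.5 SPRR1B for RBPJ was at -0.01. edgeR gave SBSN and PI3 for RBPJ at -0.03 and 0.11, IVL for FOXA1 at -0.09 and PI3 for KLF5 against plko at 0.11, and DESeq2 gave PI3 at 0.12 for RBPJ and 0.14 for KLF5 against plko and IVL at -0.10 for FOXA1. With a library left out, the RBPJ values ranged from -2.80 to 3.06 for SPRR1B, -1.90 to 2.96 for SPRR2A, -0.68 to 1.14 for SBSN, -1.55 to 0.96 for PI3, -0.96 to 0.31 for KLK5 and -1.21 to 0.39 for AQP3. For NFIB they ranged from -0.42 to 0.95 for IVL, -2.56 to 0.74 for PI3, -1.12 to 0.15 for KLK7 and -0.61 to 0.35 for AQP3, and for FOXA1 from -0.13 to 0.23 for IVL, -0.71 to 0.48 for SPRR1B and -0.04 to 0.56 for AQP3. For plko they ranged from -1.67 to 0.25 for SPRR2A and -1.54 to 0.29 for KLK7, and for KLF5 against plko from -0.96 to 0.56 for SPRR1B, -1.80 to 1.09 for PI3, -0.59 to 0.12 for KLK5 and -0.94 to 0.89 for KLK7.

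The replicate numbers of the labels were used as a block in 1 alternative. Deviations of same-numbered libraries from their construct means had correlations of -0.19 to 0.22 (median 0.03) over 28 pairs of constructs, with 3 over 0.1. SPRR1B and SPRR2A were each higher in library 2 in 7 of 8 constructs. Whether same-numbered libraries share more than a number was not tested. The block gave 1 member, AQP3, for KLF5 against plko and 3 members for KLF5 against RBPJ, and 7 for KLF5 against FOXA1, where KLK7 and SPRR1B were added. Depth limits IVL, SPRR1B, SPRR2A and SBSN most, since with the KLF5 hairpins these rest on 6, 1, 5 and 5 reads.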
